A study of Mus musculus with 7 samples.

Results

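The protocadherin genes of the mouse were described here in cerebellar RNA. They were taken as every symbol of the count files that begins with Pcdh followed by a, b, ga, gb, gc or a digit. This gave 71 of the 24421 genes listed: 15 of the alpha cluster, 22 of the beta cluster, 22 of the gamma cluster and 12 unclustered genes. RNA sequencing covered 7 libraries from C57BL/6 cerebellum. In 4 of them, the knockouts, the genotype is En1-Cre with Cic flox/flox, so that Cre made under the midbrain and hindbrain gene En1 removes Cic, a transcriptional repressor, in that lineage. The 3 controls are titled wild type but carry 1 floxed and 1 normal Cic allele, with no Cre named. Cic loss and Cre presence therefore cannot be told apart. The labels give no age or sex and do not say that each library is a separate animal, so p-values measure the spread between these libraries.

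Protocadherins are cadherin-like adhesion proteins of the cell surface. The clustered ones are encoded by tandem variable exons, each with its own promoter. In the alpha and gamma clusters a variable exon is spliced to constant exons shared by the whole cluster, whereas beta genes have a single exon. Neurons choose different sets of clustered isoforms, and like sets on touching membranes recognise each other, which underlies self-avoidance of dendrites, known in the Purkinje cell. The C-type isoforms, Pcdhac1, Pcdhac2, Pcdhgc3, Pcdhgc4 and Pcdhgc5, lie last in their clusters and are used more uniformly across cells. CTCF and cohesin link a distant enhancer to the promoters, most of which carry a shared sequence element. That element is known to be lacking at Pcdhac2, Pcdhb1, Pcdhgc4 and Pcdhgc5. Unclustered members, most of them called delta-protocadherins, act in cell sorting, axon growth and synapses.

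Each library held 102653765 to 121285349 counts in genes, of which protocadherins took 0.0804% to 0.0997%. CPM below are gene counts scaled by TMM library size. Cic was at 144 to 147 CPM across the knockouts and 216 to 257 CPM across controls (log2 fold change -0.66, SE 0.0622, adjusted p = 0.00256 in edgeR's quasi-likelihood test). Granule and Purkinje cell markers were abundant in every library, with summed levels of at least 4908 and 7084 CPM. The share of reads in no annotated gene was 18.2% to 19.0% in the knockouts and 16.0%, 18.6% and 16.5% in controls 1, 2 and 3. Libraries numbered 3 held the most choroid plexus RNA. Xist was at 1556 and 1596 CPM in knockouts 1 and 2 and at most 14.7 CPM elsewhere. The Y-linked gene Ddx3y was at 76.5 to 97.5 CPM in knockouts 3 and 4 and controls 1 and 3, and at most 1.31 CPM in the rest, control 2 included.

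Of the 71 genes, 67 passed the filter on low counts. Pcdha4, Pcdha6 and Pcdha7 were listed at 0 in all 7 libraries, and Pcdha7-g had 0 to 7 counts. The floor of 3 counts corresponds to 0.0245 to 0.0295 CPM. In GENCODE M21 the exons of Pcdha4, Pcdha6 and Pcdha7 overlap the same-strand gene models Gm42416, Gm37013 and Gm37388, and reads over 2 genes are usually set aside in counting. Pcdha11 and Pcdhgc5 also overlap same-strand models, Gm18150 and Gm38182, yet had 1679 and 10013 counts over all 7 libraries. Whether such overlap gave the 0 values was not tested.

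Of the 67 tested members, 3 rose in the knockouts and 0 fell (edgeR, adjusted p below 0.05). All 3 belong to the clusters: Pcdhb1, the first beta gene, and Pcdhgc5 and Pcdhgc4, the last gamma genes before the constant exons. Over all 16905 genes tested, 1.25% were called higher and 0.828% lower, 2.08% in all. At an unadjusted p below 0.05 there were 18 higher members and 1 lower, against 8.06% and 8.16% of all genes. Other tools called other numbers of members: limma-voom 2 higher and 0 lower (1.14% and 0.787% of all genes), and DESeq2 8 higher and 1 lower (3.95% and 2.92%). The edgeR test with replicate number as a block called 4 higher and 0 lower (1.83% and 1.21%). Libraries did not overlap between groups for 10 members higher in the knockouts and for 1 lower, against 7.06% and 8.36% of all genes.

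Pcdhb1 showed the largest fold change. Its level was 0.679, 0.627, 0.457 and 0.618 CPM in knockouts 1 to 4 and 0.180, 0.0467 and 0.131 CPM in controls 1 to 3. These are low levels, resting on 69, 64, 52 and 65 counts in the knockouts and 22, 5 and 15 in the controls. Every knockout lay above every control. The mean was 0.595 ± 0.0959 CPM (SD, n = 4) against 0.119 ± 0.0672 CPM (SD, n = 3), a 4.91-fold rise (log2 fold change 2.30, SE 0.405, adjusted p = 0.031 in edgeR). Per kilobase of exon, Pcdhb1 had the lowest mean level of the 22 beta genes, at 0.151 CPM per kb, followed by Pcdhb21 at 0.538.

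Pcdhgc5 was at 14.7, 14.7, 15.7 and 15.2 CPM in knockouts 1 to 4 and at 9.64, 11.7 and 10.5 CPM in controls 1 to 3. The knockouts were close together and all above the controls. The mean was 15.1 ± 0.485 CPM against 10.6 ± 1.02 CPM, a 1.42-fold rise (log2 fold change 0.51, SE 0.0811, adjusted p = 0.0224 in edgeR). Pcdhgc4, the gamma isoform known for its part in neuronal survival, was at 24.2, 20.3, 22.7 and 20.6 CPM across the knockouts and 15.6, 17.8 and 16.2 CPM across the controls. Its groups did not overlap either, and the mean of 21.9 ± 1.83 CPM was 1.33-fold that of the controls, 16.5 ± 1.16 CPM (log2 fold change 0.41, SE 0.0821, adjusted p = 0.0479 in edgeR).

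**Figure D1:**
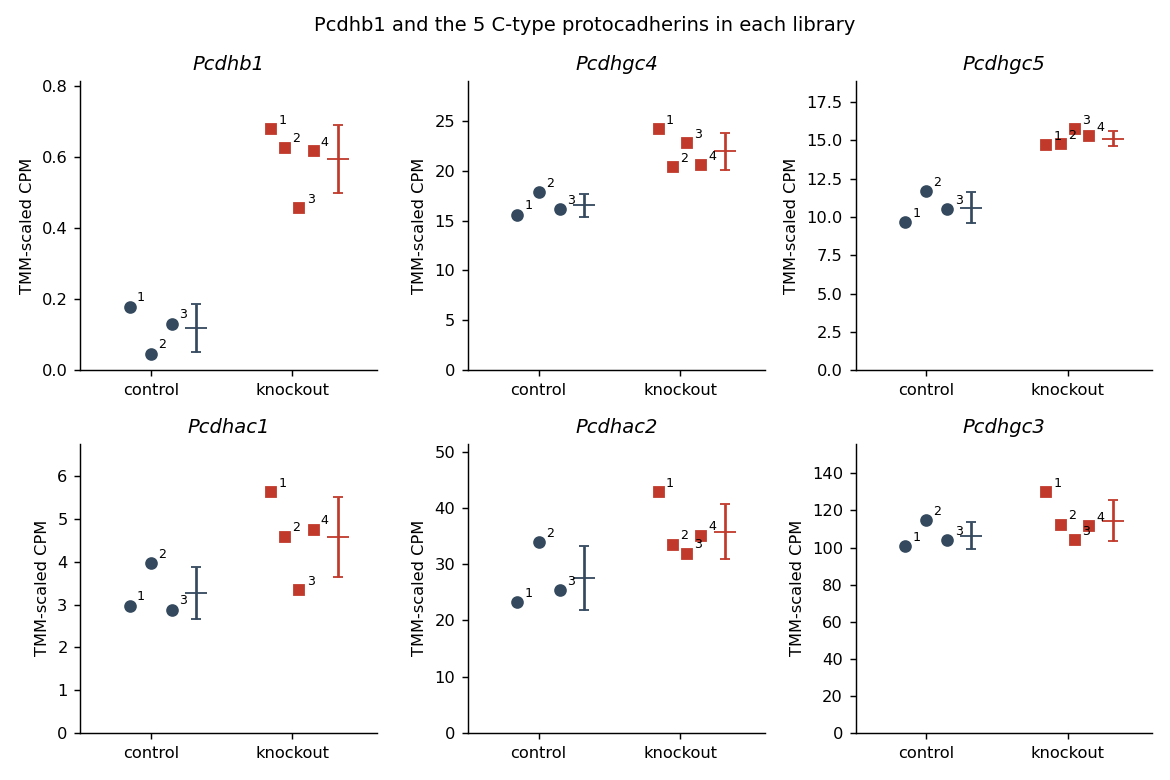
TMM-scaled CPM of Pcdhb1 and of the 5 C-type isoforms in each library (dots: controls, squares: knockouts, numbered by replicate; bars: mean and SD). For Pcdhb1, Pcdhgc4 and Pcdhgc5 every knockout lies above every control, whereas the groups overlap for Pcdhac1, Pcdhac2 and Pcdhgc3.

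The calls of these 3 genes depended on single libraries, as did the number of calls over all genes. Without knockout 1, 2 or 4, or control 1 or 3, the adjusted p in edgeR was 0.0957, 0.078, 0.0909, 0.063 and 0.123 for Pcdhb1. In the same order it was 0.0698, 0.0602, 0.0805, 0.0773 and 0.0952 for Pcdhgc5, and 0.119, 0.074, 0.094, 0.177 and 0.184 for Pcdhgc4. Leaving out knockout 3 or control 2 ended none of the 3 calls. All genes called higher numbered 212 in the main test. Without knockout 1, 2 or 4, or control 1 or 3, they numbered 65, 99, 79, 77 and 78. Without knockout 3 or control 2 they numbered 493 and 371. With the share of reads in no annotated gene as a covariate, Pcdhb1 was called (adjusted p = 0.0281), and Pcdhgc5 (0.238) and Pcdhgc4 (0.432) were not. In that fit 0.272% of all genes were called higher and 0.071% lower. Without both libraries numbered 3 Pcdhb1 was called (0.0490), and Pcdhgc5 (0.0629) and Pcdhgc4 (0.133) were not, while 256 of all genes were called higher. With Xist as a covariate none of the 3 passed (0.107, 0.0695 and 0.158 for Pcdhb1, Pcdhgc5 and Pcdhgc4), nor within the 4 libraries with Ddx3y (0.302, 0.24 and 0.302). Those 2 fits called 62 and 1 of all genes higher. Limma-voom did not call Pcdhgc4 (0.0524). All 3 log2 fold changes stayed above 0 under each of the 18 alternatives, from 1.78 to 3.64 for Pcdhb1, 0.35 to 0.62 for Pcdhgc5 and 0.32 to 0.47 for Pcdhgc4.

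The other C-type isoforms were not called. Pcdhac2, known for the spacing of serotonergic axons, was the most abundant alpha isoform. It was at 42.9, 33.4, 31.9 and 35.0 CPM across the knockouts and 23.3, 33.9 and 25.4 CPM across controls (log2 fold change 0.38, SE 0.149, adjusted p = 0.263 in edgeR). Control 2 lay among the knockouts. Pcdhac1 was at 4.57 ± 0.943 CPM across the knockouts and 3.27 ± 0.607 CPM across controls (log2 fold change 0.48, SE 0.195, adjusted p = 0.27). Pcdhgc3, by far the most abundant gamma isoform, was at 104 to 130 CPM across the knockouts and 101 to 115 CPM across controls (log2 fold change 0.11, SE 0.0799, adjusted p = 0.563).

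The 4 genes known to lack the shared promoter element thus had log2 fold changes of 2.30 (Pcdhb1), 0.51 (Pcdhgc5), 0.41 (Pcdhgc4) and 0.38 (Pcdhac2). Of these 4, 3 were called, and all 4 had an unadjusted p below 0.05. Of the 51 other tested clustered genes, 0 were called and 12 had an unadjusted p below 0.05, all 12 of them higher in the knockouts. Their median log2 fold change was 0.17. Of all genes tested, 1.25% were called higher, and 8.06% were higher at that unadjusted p. This grouping was made after the values were seen and no difference between the groups was tested. The promoter sequences of the clusters were not analysed here.

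Each library's own cluster total gives a scale free of library size. Pcdhgc5 made up 3.48%, 3.98%, 4.22% and 4.26% of the gamma counts in the knockouts and 2.94%, 3.03% and 3.12% in the controls. Pcdhgc4 made up 5.48% to 6.11% and 4.63% to 4.80%. Pcdhb1 took 0.235% to 0.302% of the beta counts in the knockouts and 0.0230% to 0.107% in the controls. All 3 shares were higher in every knockout. Over the 56 clustered genes with counts, shares were higher without overlap for 6 and lower for 2. No rate over all genes exists for such shares, so these counts have none to be set against. Shares of a cluster are also bound together, so a rise of some lowers the rest. The other 3 higher ones were Pcdhb10, Pcdhb12 and Pcdhga9. Pcdhgb6, the most abundant gamma isoform outside the C type, went the other way, with 7.04% to 8.15% in the knockouts and 8.51% to 8.87% in the controls, while its CPM overlapped (log2 fold change -0.09, adjusted p = 0.609 in edgeR). The other lower share was that of Pcdhb20, at 8.05% ± 0.390 (SD, n = 4) against 8.90% ± 0.0140 (SD, n = 3).

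Across the clusters, most estimates lay above 0. Log2 fold changes were positive for 11 of 11 tested alpha genes, 21 of 22 beta genes and 16 of 22 gamma genes, against 48.8% of all genes. Medians were 0.30, 0.23 and 0.11 in that order, and -0.0044 over all genes tested. With other scalings the positive counts were 10 or 11, 21 or 22 and 16 or 17. Single libraries moved the medians more. The gamma median was 0.05 without knockout 1, 0.06 without control 3 and 0.20 without control 2, and 13 to 20 gamma genes were positive when 1 library was omitted. The beta median was 0.13 without control 1 and 0.34 without control 2. Neighbouring genes share an enhancer and, in the alpha and gamma clusters, exons, so these counts are not separate results.

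**Figure D2:**
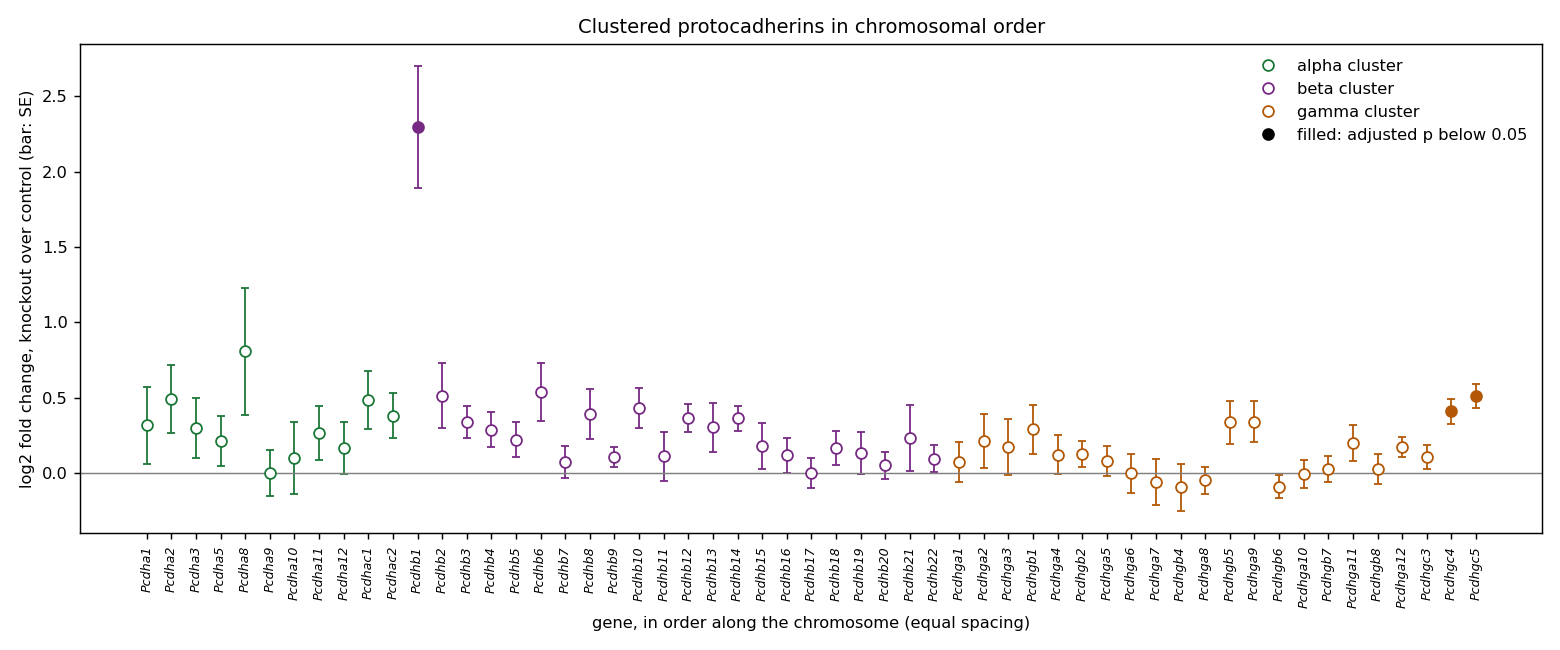
Log2 fold change (knockout over control, with SE) of the 55 tested clustered genes in chromosomal order, coloured by cluster and filled where the adjusted p was below 0.05. The filled points are Pcdhb1 at the start of the beta cluster and Pcdhgc4 and Pcdhgc5 at the end of the gamma cluster.

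The alpha genes, first described as cadherin-related neuronal receptors, had no member called, against 2.08% of all genes in edgeR. The alternate isoforms were low. Those that passed the filter and have an exon length ranged from 0.412 CPM per kb of variable exon for Pcdha8 to 1.77 for Pcdha12, beside 1.57 for Pcdhac1 and 10.7 for Pcdhac2. Pcdha2 was at 5.51, 4.96, 3.88 and 3.53 CPM across the knockouts and 2.44, 4.24 and 2.87 CPM across controls (log2 fold change 0.49, SE 0.228, adjusted p = 0.34 in edgeR). Pcdha12 had a log2 fold change of 0.17 (adjusted p = 0.685). At an unadjusted p below 0.05 there were 2 alpha genes, Pcdhac2 and Pcdhac1, both higher in the knockouts, against 8.06% of all genes. No alpha gene separated the groups, against 7.06% of all genes higher and 8.36% lower. The summed alpha level was 81.9, 69.1, 62.4 and 64.5 CPM across the knockouts and 47.1, 67.8 and 51.3 CPM across the controls. Control 2 exceeded knockouts 3 and 4.

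The beta genes had 1 called member, Pcdhb1, and 9 at an unadjusted p below 0.05, all higher in the knockouts. The share of all genes called higher was 1.25%, and 8.06% were higher at that unadjusted p. Pcdhb14, the most abundant beta gene in the knockouts by CPM, was at 24.9, 22.7, 21.4 and 21.2 CPM there and at 17.7, 18.9 and 16.0 CPM across the controls. The groups did not overlap (log2 fold change 0.36, SE 0.0808, adjusted p = 0.0663 in edgeR). It passed with the replicate block (adjusted p = 0.0319), without knockout 3 (0.0428) and in DESeq2 (0.00175). Pcdhb12 was at 14.3 ± 1.10 CPM against 11.1 ± 1.13 CPM (log2 fold change 0.36, adjusted p = 0.103), again with no overlap. It passed without knockout 3 (adjusted p = 0.0467) and in DESeq2 (0.00817). DESeq2 also called Pcdhb10 (adjusted p = 0.0334) and Pcdhb3 (0.0402), both picked out here only after seeing their values.

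Other abundant beta genes overlapped between groups. Pcdhb17 was at 19.7, 20.6, 17.9 and 20.9 CPM across the knockouts and 18.3, 23.0 and 18.1 CPM across the controls, and the sign of its estimate varied with the scaling (log2 fold change -0.0028 with TMM, 0.0017 with DESeq2 size factors). Per kilobase Pcdhb9 was the highest beta gene, at 6.46 CPM per kb, and its groups overlapped. The summed beta level was 227, 212, 195 and 204 CPM across the knockouts and 168, 203 and 178 CPM across the controls. Knockout 1 was highest and control 2 lay within the knockout range.

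Among gamma genes, the 12 of subfamily A and the 7 of subfamily B had 0 called members, against 2.08% of all genes in edgeR. The subfamily medians were 0.10 and 0.03 on the log2 scale. The 3 C-type genes had a median of 0.41. Per kilobase of variable exon, Pcdhgc3 was at 43.2 CPM per kb, followed by Pcdhgb6 at 11.4 and Pcdhga11 at 7.31. The lowest was Pcdhgb8, a polymorphic pseudogene in GENCODE M21, at 1.53. Pcdhga9 had the smallest unadjusted p outside the C type, at 8.63 ± 1.15 CPM across the knockouts and 6.82 ± 0.913 CPM across controls (log2 fold change 0.34, adjusted p = 0.261 in edgeR), and its groups overlapped. The summed gamma level was 421, 371, 372 and 358 CPM across the knockouts and 328, 385 and 337 CPM across the controls. Control 2 was higher than 3 of the 4 knockouts.

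**Figure D3:**
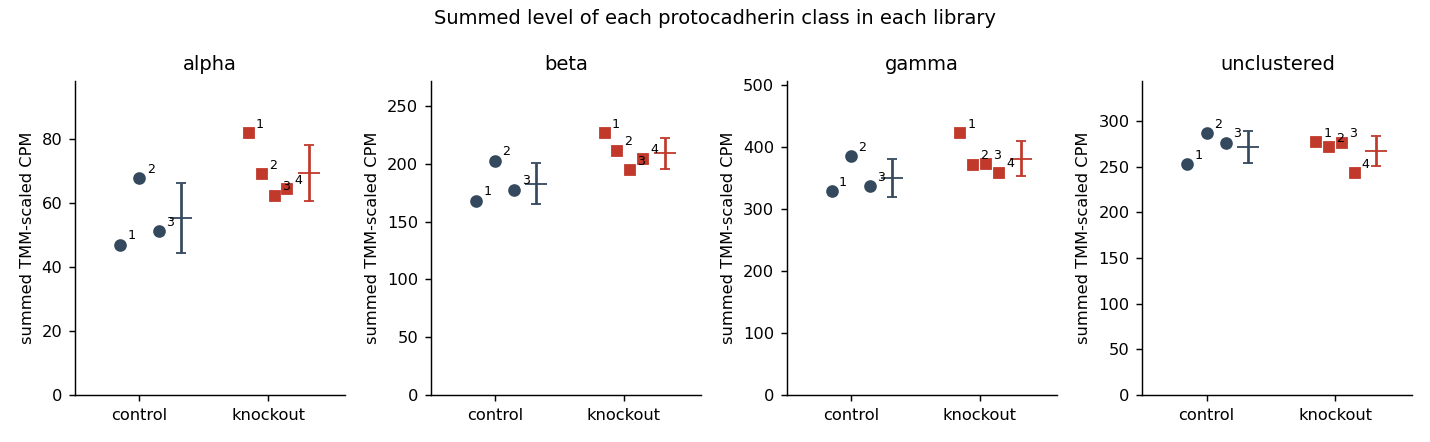
Summed TMM-scaled CPM of each class in each library (dots: controls, squares: knockouts, numbered by replicate; bars: mean and SD). In the alpha, beta and gamma panels knockout 1 is highest and control 2 lies within the knockout range, so the groups overlap in all 4 panels.

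Group means of these sums differed by 1.25-fold for alpha, 1.14-fold for beta, 1.09-fold for gamma and 0.982-fold for the unclustered genes, whose log2 ratio of -0.03 was 0.02 without knockout 4 and 0.01 without control 2. In bulk RNA, fewer or more cells of a type and less or more RNA per cell cannot be told apart. In each cluster control 2, the control with the knockouts' share of reads in no annotated gene, had the highest control level. With that share as a covariate, positive log2 fold changes were left for 8 alpha, 15 beta and 11 gamma genes, with medians of 0.15, 0.14 and -0.0058, and 46.9% of all genes were positive. The share's part in the shift was not tested beyond this fit, in which it largely follows the groups.

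**Figure D4:**
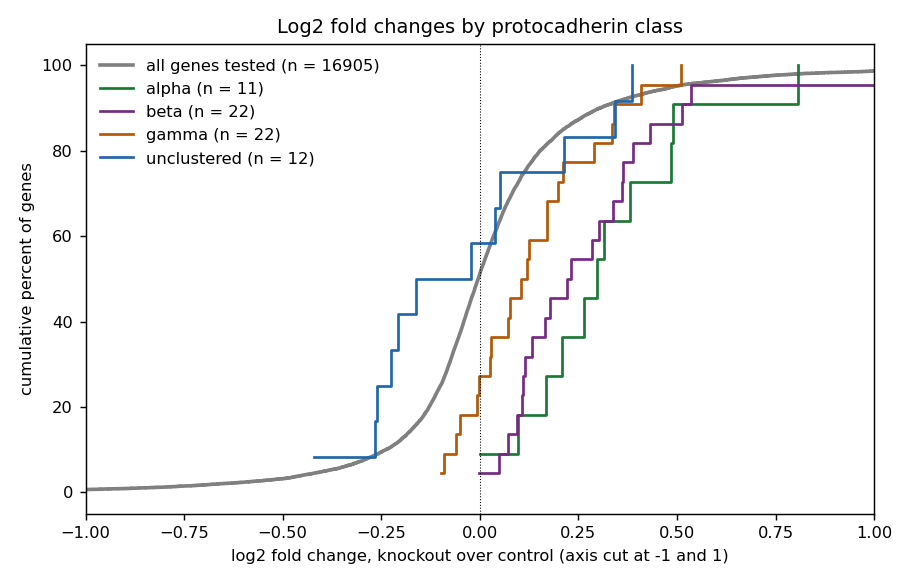
Cumulative percent of genes by log2 fold change (knockout over control) for each class and for all 16905 genes tested, with the axis limited to -1 to 1. The alpha, beta and gamma curves lie right of the curve of all genes over most of their range, with medians of 0.30, 0.23 and 0.11, and the unclustered curve has a median of -0.09.

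Unclustered protocadherins showed no common direction. Of 12, 5 had positive and 7 negative log2 fold changes, against 48.8% positive over all genes. In edgeR 0 were called, against 2.08% of all genes. The unadjusted p was below 0.05 for 2 higher and 1 lower, against 8.06% and 8.16% of all genes. DESeq2 called 1 of the 12 higher and 1 lower, against its 3.95% and 2.92% over all genes. The median log2 fold change of -0.09 was -0.16 without knockout 1, -0.04 without knockout 4, -0.14 without control 1 and -0.0055 without control 3. Pcdh20 and Pcdh19 were nearest the threshold in edgeR.

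Pcdh20 was at 18.8, 16.0, 14.2 and 17.0 CPM across the knockouts and 19.0, 23.9 and 23.4 CPM across controls (log2 fold change -0.42, SE 0.113, adjusted p = 0.11 in edgeR). All knockouts were below the controls, although knockout 1 and control 1 nearly met. Pcdh19, an X-linked gene of a female-limited epilepsy, was at 7.29, 8.06, 6.83 and 8.14 CPM across the knockouts and 6.18, 5.34 and 5.87 CPM across controls (log2 fold change 0.39, SE 0.103, adjusted p = 0.109). The groups did not overlap. The estimate was 0.31 within the 4 libraries with Ddx3y (adjusted p = 0.555) and 0.37 with Xist as a covariate (0.299). DESeq2 called Pcdh19 higher (adjusted p = 0.00908) and Pcdh20 lower (0.014). Pcdh18 was at 2.17 to 2.58 CPM across the knockouts and 1.74 to 1.97 CPM across controls (log2 fold change 0.34, adjusted p = 0.238 in edgeR), also with no overlap.

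The other abundant unclustered genes were not called. Pcdh9 had the highest level of the unclustered genes, at 17.1 CPM per kb of exon, with 118, 119, 127 and 105 CPM across the knockouts and 107, 120 and 117 CPM across controls (log2 fold change 0.04, SE 0.0683, adjusted p = 0.836 in edgeR). Pcdh10, known for axon outgrowth in the forebrain, was at 30.4 ± 1.62 CPM against 30.8 ± 2.51 CPM (log2 fold change -0.02, adjusted p = 0.911). Pcdh17, which acts at presynaptic sites, was at 26.7 ± 2.81 CPM against 30.8 ± 3.96 CPM (log2 fold change -0.21, adjusted p = 0.385). Pcdh7 was at 17.4 to 25.4 CPM and 20.4 to 26.7 CPM (log2 fold change -0.16, adjusted p = 0.624), with its highest value in each group in the libraries numbered 3. Pcdh1 was at 28.3 to 39.3 CPM and 25.9 to 32.2 CPM (log2 fold change 0.21, adjusted p = 0.421). None of these 5 genes separated the groups.

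The remaining unclustered genes were low or variable. Pcdh15, a tip-link protein of inner-ear hair cells, ranged from 5.68 to 9.41 CPM across the knockouts and 8.31 to 8.72 CPM across controls (log2 fold change -0.22, adjusted p = 0.556 in edgeR). Pcdh8, an activity-regulated protocadherin, was at 1.87 ± 0.482 CPM against 2.24 ± 0.154 CPM (log2 fold change -0.27, adjusted p = 0.57). X-linked Pcdh11x was at 2.77 ± 0.675 CPM against 3.32 ± 0.850 CPM (log2 fold change -0.26, adjusted p = 0.628). Pcdh12, the endothelial member, was at 0.380 ± 0.165 CPM against 0.367 ± 0.0831 CPM (log2 fold change 0.05, adjusted p = 0.963), with 0.620 CPM in knockout 1. The sign turned, among other settings, in limma-voom and without knockout 1 or control 2.

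**Figure D5:**
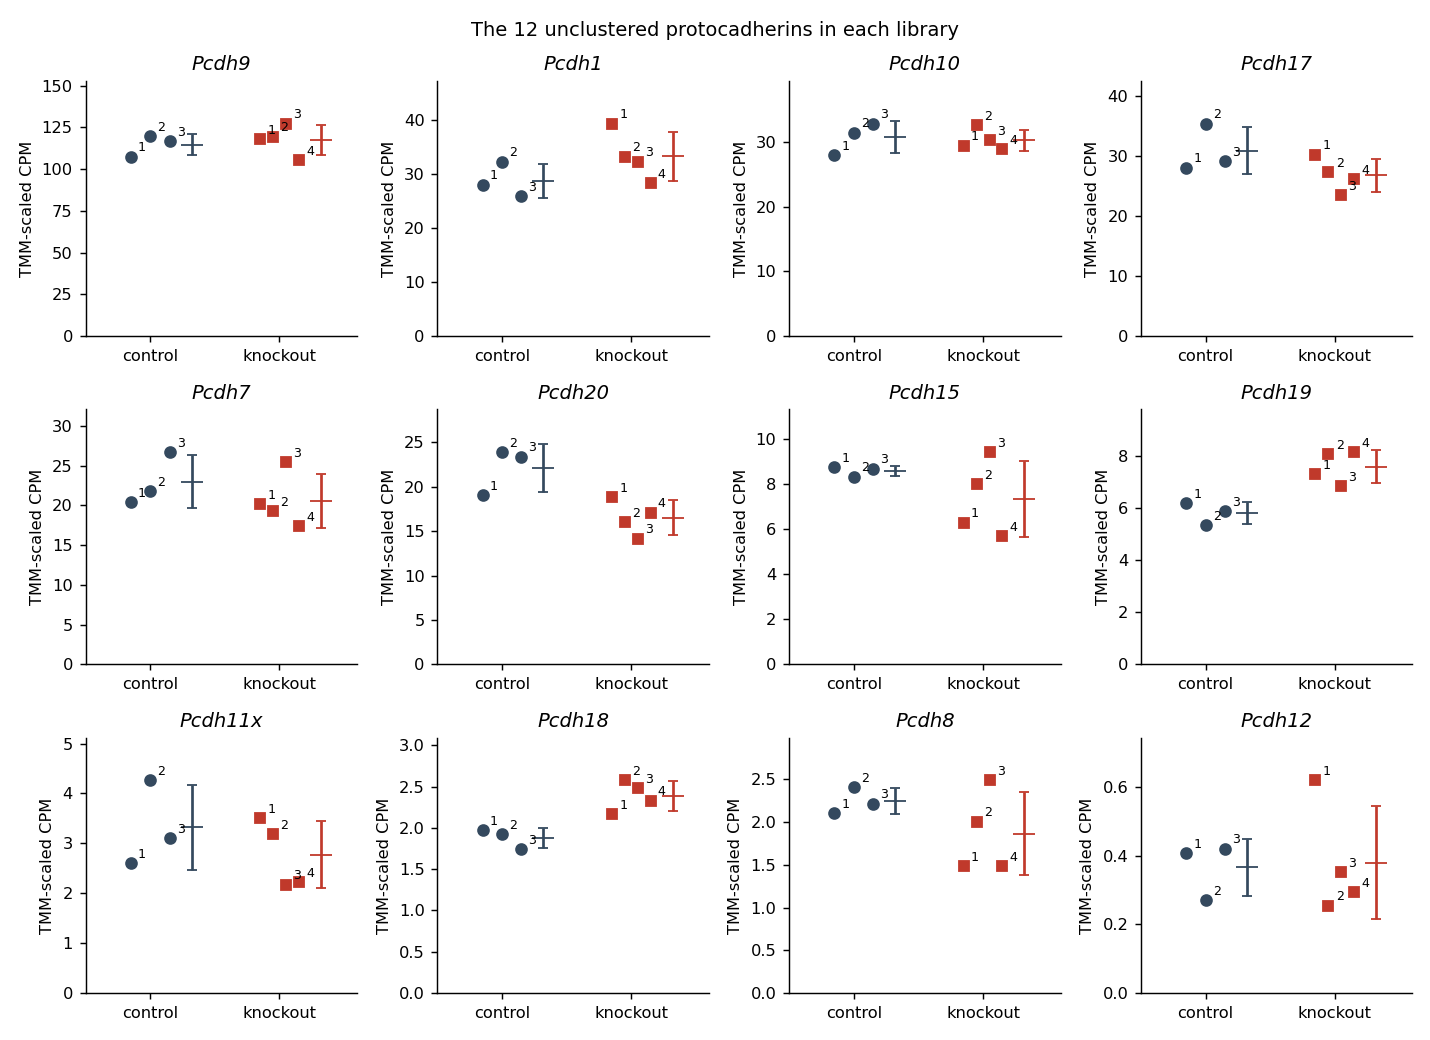
TMM-scaled CPM of the 12 unclustered genes in each library, ordered by mean level (dots: controls, squares: knockouts, numbered by replicate; bars: mean and SD). The groups are apart for Pcdh19 and Pcdh18, higher in the knockouts, and for Pcdh20, lower, and overlap for the other panels.

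Variable exons of the clusters resemble one another, and reads without a unique alignment were not counted. The share of 50-base words of the first exon that also occur in transcripts of another locus was 0% for Pcdhb1, Pcdhgc4, Pcdhgc5, Pcdhgc3, Pcdhac1 and Pcdhac2. It reached 11.99% among beta genes (Pcdhb12), 17.9% among gamma genes (Pcdhgb2) and 26.6% among alpha genes (Pcdha6). Levels of the alternate isoforms can therefore be split or lost in counting, and shared constant exons add to this. Gene models on the other strand overlap the exons of several members, among them Pcdhb12 (Gm37446), Pcdhgc3 (BC037039) and Pcdh19 (Gm26851), and the strand setting is not given in the sources used here. Pcdhgc5 overlaps Gm38182 on its own strand, and Pcdhb1 and Pcdhgc4 overlap no gene model outside the family.

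Pcdhb1 lies on chromosome 18 at 37264938 to 37267525, Pcdhgc4 at 37815079 to 37841873 and Pcdhgc5 at 37819513 to 37841873 (GRCm38, plus strand). The single exon of Pcdhb1 fills its gene. The variable first exons of Pcdhgc4 and Pcdhgc5 are at 37815079 to 37817983 and 37819513 to 37822134.

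None of the listed regulators of the clusters was called. The 21 tested regulators include Ctcf, cohesin, the silencer Smchd1 and DNA methyltransferases. Of them 0 were called, against 2.08% of all genes in edgeR. At an unadjusted p below 0.05 there were 0, against 8.06% of all genes higher and 8.16% lower. Their median log2 fold change was 0.03. Ctcf was at 127 ± 3.28 CPM across the knockouts and 132 ± 3.88 CPM across controls (log2 fold change -0.05, adjusted p = 0.565 in edgeR). The smallest unadjusted p values were those of Atf7ip (log2 fold change 0.16), Ehmt1 (0.08) and Pds5a (0.12), with adjusted p of 0.339, 0.438 and 0.5.

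Of 25 effectors of protocadherin signalling, 0 were called, with 3 higher and 2 lower at an unadjusted p below 0.05. Over all genes tested, 2.08% were called in edgeR, and 8.06% were higher and 8.16% lower at that unadjusted p. Ptk2b, a focal adhesion kinase that binds clustered protocadherins, was at 30.3 ± 7.26 CPM against 17.2 ± 1.43 CPM, with no overlap (log2 fold change 0.81, SE 0.192, adjusted p = 0.0866 in edgeR). Its relative Ptk2 had a log2 fold change of 0.13 (adjusted p = 0.206), and Adam10, a protease that sheds protocadherins, one of -0.15 (adjusted p = 0.136).

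Among 39 tested genes of other cadherin families, 1 fell and 0 rose, against 0.828% called lower and 1.25% called higher over all genes. Cdh19, known from Schwann cell precursors and other glia, fell to 5.75 ± 0.306 CPM against 9.27 ± 0.486 CPM (log2 fold change -0.69, SE 0.0869, adjusted p = 0.00826 in edgeR). Cdh18 (log2 fold change 0.25, adjusted p = 0.0787) and Fat3 (-0.26, adjusted p = 0.0834) were next. The list's median was 0.04.

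Markers of other cells differed between groups. Of all genes tested, 1.25% were called higher and 0.828% lower in edgeR. Without overlap between groups, 7.06% of all genes were higher in the knockouts and 8.36% lower. The summed level of 6 markers of raphe and midbrain neurons was 43.2 to 72.0 CPM across the knockouts and 17.1 to 35.9 CPM across the controls. Most of this sum was Th, a dopamine synthesis enzyme, with means of 39.7 and 22.5 CPM and no overlap (adjusted p = 0.427 in edgeR). Of 5 tested members 1 was called higher, Tph2, the serotonin synthesis enzyme, at 4.05 against 0.846 CPM. Ddc, also without overlap, was at 6.74 against 4.88 CPM (adjusted p = 0.0727). Slc6a4, which defines serotonergic neurons, averaged 0.108 and 0.0553 CPM, Fev 0.239 and 0.380 CPM, and Slc6a3 lay under the filter. The 6 astrocyte and Bergmann glia markers summed to 1920 to 2186 and 2617 to 2669 CPM. Of them 3 were called lower, and all 6 were lower without overlap. The 5 oligodendrocyte precursor markers summed to 97.6 to 124 and 128 to 138 CPM. Of them Olig1 was called lower, while Pdgfra and Cspg4 had log2 fold changes of 0.02 and 0.13. Of the forebrain markers, Neurod6 was called lower (6.64 against 10.8 CPM). Tbr1 lay the other way without overlap (log2 fold change 0.74, adjusted p = 0.172), and Emx1 was near 0. Of the 6 Purkinje cell markers all had positive log2 fold changes, from 0.17 to 0.25, with 0 called and overlapping sums of 7084 to 10081 and 7140 to 8680 CPM. Among 6 oligodendrocyte and 6 interneuron markers Cldn11 and Gad2 were called lower, and no granule cell, microglial or meningeal marker was called. Gad2 (log2 fold change -0.25) was the exception in its list, where 5 of 6 interneuron markers had estimates above 0. Kit (0.23, adjusted p = 0.0993 in edgeR) and Gad1 (0.13, adjusted p = 0.322) were higher without overlap. The part of these cell markers in the protocadherin values was not tested. Endothelial markers summed to 105 to 152 and 98.0 to 121 CPM, and choroid plexus markers to 44.3 to 8452 and 76.1 to 6119 CPM, both overlapping. The 6 endothelial markers all had positive log2 fold changes, from 0.09 to 0.33, with 0 called.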

How the data were processed

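For each of the 7 libraries the authors deposited a file of raw read counts by gene symbol, closed by HTSeq's summary rows. The tools named in the submitters' processing notes are STAR 2.5.3a, HTSeq and DESeq2, and the build is mm10. Which annotation and strand setting they took is not given in those sources. Per the labels' protocols, amplified cDNA was made with random and poly(A) priming. The summary rows stayed out of library sizes: no feature 16.0% to 19.0%, ambiguous 1.27% to 1.37% and not uniquely aligned 12.0% to 13.7% of all entries.

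Counts were analysed in R 4.3.3 with edgeR 4.0.16: filterByExpr, TMM and the robust quasi-likelihood F test over 16905 genes, with the 2 genotypes compared and p adjusted by Benjamini-Hochberg over all of them. Called means an adjusted p below 0.05, and every adjusted p is from this test unless another tool is named. SE was derived as the size of the log2 fold change over the root of F, and means carry the SD over 4 knockout or 3 control libraries. Alternatives were DESeq2 1.42.0, limma-voom (limma 3.58.1), other scalings and filters, covariates, the replicate block and omitted libraries; the Xist and Ddx3y alternatives were added after the data were seen. The floor of 3 counts covers counting error only, because reads of amplified cDNA lacking molecular identifiers can repeat a molecule.

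Replicate numbers 1 to 3 occur in both groups. Across genes, the correlation of deviations from the group mean was 0.145, 0.288 and 0.713 for equal numbers, all over 0.1, but differently numbered pairs passed too (knockout 1 with control 2 at 0.319), so the main test leaves the numbers out and a blocked value is printed where it changes a call. The spread of replicate pairs was 18.5 to 157 times that of sampling alone. Each library was treated as 1 replicate, but this spread cannot show whether libraries are separate animals.

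Levels per kb use the first exon of the main transcript for clustered genes and all exons for unclustered ones. GENCODE M21 (GRCm38, called mm10) matched 69 of 71 members. Named members were the called ones, the 3 smallest p and 2 highest CPM of each cluster, the C type, all unclustered genes, and the 3 smallest p of other lists; Pcdha8, Pcdha6, Pcdhb9, Pcdhb21, Pcdhga11, Pcdhgb2 and Pcdhgb8 are named only as extremes. The members and lists were chosen with earlier results of these data known.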

Additional observations from a re-analysis of the deposited data

Results flagged for a closer look

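In the 4 knockouts, 34 values were tested for a sample far from the others, which chance alone flags in about 1 of 20 groups. The summed level of the unclustered protocadherins was flagged, and among that many values chance alone would be expected to flag some. Knockout 4 was at 243 CPM, and the next lowest knockout at 272 CPM.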

How the results depend on the processing

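The 44 summed class levels under other scalings or libraries moved by less than 1 SD between libraries. Their log2 ratios ran from 0.23 to 0.50 for alpha, 0.14 to 0.28 for beta, 0.07 to 0.20 for gamma and -0.07 to 0.02 for the unclustered genes, where the sign turned without knockout 4 or control 2. Of 467 values of 26 named genes under 18 alternatives, 413 kept their direction and side of the threshold, 27 lost a call, 7 gained one and 20 turned sign. Cic lost its call only within the 4 libraries with Ddx3y (log2 fold change -0.59, adjusted p = 0.129).

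Members called higher numbered 3 in the main test, 8 in DESeq2, 1 with the share of reads in no gene as a covariate, 1 without both libraries numbered 3, and 0 with Xist as a covariate or within the 4 libraries with Ddx3y; omitting 1 library gave 0 to 5. DESeq2 called 1 lower. All genes called higher and lower were 212 and 140, against 673 and 497 in DESeq2, 46 and 12 with that share, 256 and 146 without both libraries numbered 3, 62 and 20 with Xist, and 1 and 0 within the libraries with Ddx3y; omitting 1 library gave 65 to 493 and 21 to 349. The replicate block called 310 and 204, and among members it added Pcdhb14 and changed no other call.

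Estimates near 0 turned sign. Omitting 1 library gave -0.063 to 0.12 for Pcdhb17, -0.080 to 0.028 for Pcdh10, -0.29 to 0.20 for Pcdh12 and -0.0039 to 0.086 for Pcdh9. Pcdhb17 had 0.0017 (DESeq2 size factors), 0.0038 (CPM filter), 0.00091 (DESeq2), 0.0061 (limma-voom), 0.041 (without knockout 3), 0.12 (without control 2) and 0.087 (Ddx3y libraries). Pcdh10 had 0.0017 (replicate block), 8.68e-05 (without knockout 4), 0.028 (without control 3) and 0.028 (without both numbered 3). Pcdh12 had -0.015 (limma-voom), -0.29 (without knockout 1), -0.12 (without control 2), -0.13 (Xist) and -0.36 (Ddx3y libraries). Pcdh9 had -0.031 (share of reads in no gene), -0.0039 (without knockout 3) and -0.00044 (without control 1), and Pcdha12 had -0.096 (that share). The cause was not tested.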

Other observations

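Genes that are no protocadherins but start within the clustered locus of 911.6 kb or 200 kb either side of it were listed after the data were seen. Of 16 tested, 0 were called by edgeR and 2 had an unadjusted p below 0.05, Hdac3 (log2 fold change 0.15, adjusted p = 0.151) and Ndufa2 (-0.14, adjusted p = 0.28). Over all genes, 2.08% were called, and 8.06% were higher and 8.16% lower at that unadjusted p. The median log2 fold change of the 16 was -0.05, and 6 were positive. Taf7 and Slc25a2, which lie between the beta and gamma clusters, had log2 fold changes of -0.05 (adjusted p = 0.809) and -0.34 (adjusted p = 0.557).

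The octamers TGAATGAA, TGAATGGA, TCAATGAA and TCAATGGA, known as CIC binding sequences, were looked for on both strands in RefSeq promoter windows of GRCm38.p6, which run from 250 bases before to 50 bases after a gene's start. The table held 10 windows of 9 unclustered members, and 0 of them contained an octamer, against 3.84% of 32851 windows. Clustered members were not looked at.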
